A study of Mus musculus with 12 samples.

Results

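Heart and skeletal muscle genes were followed on lung arrays of pups born to, or carried by, Abcb11-/- and WT mothers. The genes formed a fixed list of 38, of which 20 are known from heart muscle and 18 from skeletal muscle. Each was read by the probe set named for that gene alone, and where a gene had several, by the one that was brightest on average over the 6 lung arrays. Of the 38 genes, 36 were measured, 18 on each list, among 17097 genes in all. Myh6, the alpha heavy chain of heart myosin, and Sln, a small inhibitor of the muscle calcium pump, had no probe set named for them alone and are not analysed here.

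All pups were Abcb11+/- on a C57BL/6 background, and Abcb11 encodes the pump that carries bile salts out of the hepatocyte. Pups of Abcb11-/- mothers had WT fathers, and pups of WT mothers had Abcb11-/- fathers, so the mother's genotype and the parent that passed on the deleted allele differed together and cannot be told apart. Lungs were taken at embryonic day 17.5 (E17.5), at E18.5 and on the day of birth (PN0), with 1 array for each mother at each stage. The number of pups behind an array is not stated. A legend of the study on gene expression gives 3 animals per group at E18.5 and PN0, and does not cover E17.5. The same arrays were run on livers of 1.5-month-old female C57BL/6 mice, 3 Abcb11-/- and 3 WT.

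Values are log2 signals, on which a difference of 1 means 2-fold, and every difference below is the Abcb11-/- mother minus the WT mother at the same stage. Genes at least 1.5-fold apart were counted. With 1 array per mother and stage these differences have no replicate check, and they carry no p-value. A value under a log2 of 5 is called dim here. Where the lower of a pair of values was dim, the log2 difference is set in part by the background of the probe set, and apart from the 1.5-fold limit no fold is given. Of all 17097 genes, 44.0% were dim on all 6 lung arrays. Probe sets differ in brightness for the same amount of RNA, so a gene is compared only with itself on other arrays. In bulk tissue, fewer cells of a type and less RNA per cell cannot be told apart.

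Striated muscle contracts when calcium released through ryanodine receptors binds troponin on the actin filament and lets myosin pull on it, and heart and skeletal muscle build this machine from partly different isoforms. In mice the muscle sheath of the pulmonary veins inside the lung is cardiac muscle, of atrial character, so heart transcripts are a normal part of mouse lung. Skeletal muscle lies outside the lung, in the diaphragm, the chest wall and, in the mouse, much of the oesophagus. Skeletal muscle replaces embryonic (Myh3) and perinatal (Myh8) myosin heavy chains by adult fast ones (Myh1, Myh2 and Myh4) around and after birth, and the developing heart and developing skeletal muscle share several isoforms.

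The lung arrays had similar medians, between 3.63 and 3.68. Abcb11 itself read 2.90 to 3.26 in Abcb11-/- livers and 10.88 to 11.22 in WT livers, and it was dim on all 6 lung arrays. Sftpc, the surfactant protein of type II cells, lay between 13.23 and 13.39 on the lung arrays, whose brightest values were 13.50 to 13.57, so that it had little room to differ. Of the 6, the array with the Abcb11-/- mother at E17.5 stood apart in genes of hepatocytes. In genes of further cell types it differed from the WT mother at that stage, without always being the extreme array. Relative to the WT mother it was at least 1.5-fold higher in 9 of 10 genes of hepatocytes (median difference 5.14), in 5 of 7 erythroid genes (1.47), in 3 of 5 mesothelial genes (0.81) and in 3 of 5 type II cell genes (0.64, with Sftpd, a surfactant protein, at 1.42), while 5 of 8 smooth muscle genes were lower (-1.03). The linear signals of the hepatocyte genes summed to 20518 with the Abcb11-/- mother and 1172 with the WT mother at E17.5, and to between 213 and 898 on the 4 later arrays. Each measured type II cell gene was lowest with the WT mother at E17.5, where Sftpd read 9.02. It read 10.43 with the Abcb11-/- mother at E17.5 and 11.45 to 12.09 later. The mesothelial genes Msln, Upk3b and Upk1b were also lowest on that WT array. Lrrn4 and Wt1, also mesothelial, were highest with the Abcb11-/- mother at E17.5 and lowest with the WT mother at PN0. The part of these tissues and cell types in the muscle values at E17.5 was not tested.

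The 2 lists took different courses. At E17.5 the skeletal muscle list was far higher with the Abcb11-/- mother, with a median difference of 2.65 over its 18 genes, and that height was on a single array. The heart list was mixed at that stage, with a median of -0.37, and the 5 measured genes that heart makes and skeletal muscle does not were all lower, with a median of -1.49. At E18.5 both lists lay near 0, with medians of 0.01 for heart genes and -0.07 for skeletal muscle genes. At PN0 all 18 heart genes were above 0 with the Abcb11-/- mother, beside 51.7% of all genes, with a median of 0.64. The smallest of these differences were in genes dim on both arrays, Casq2 (0.10), Mb (0.12), Nppa (0.14) and Myl2 (0.17). The skeletal muscle list had a median of -0.11 at PN0. Over all 17097 genes the medians over the 3 stages in order were -0.03, 0.01 and 0.01.

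**Figure D1:**
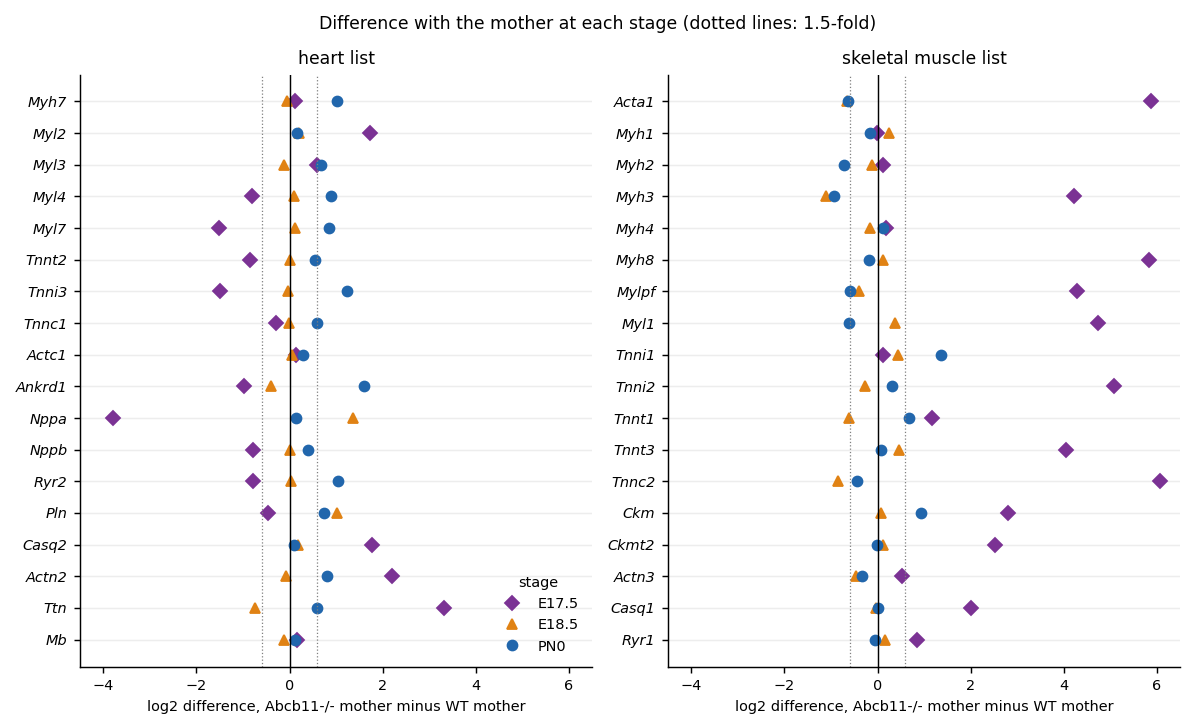
Log2 difference between the lung arrays of the Abcb11-/- mother and the WT mother (horizontal axis, Abcb11-/- minus WT) for each measured heart gene (left) and skeletal muscle gene (right), 1 point per stage, with dotted lines at 1.5-fold. Skeletal muscle genes reach 6.06 at E17.5 and stay between -1.10 and 1.36 at the later stages. All 18 heart genes lie right of 0 at PN0, beside 51.7% of all genes.

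Counted at 1.5-fold, 13 of 18 skeletal muscle genes were higher with the Abcb11-/- mother at E17.5 and 0 were lower, where 3.47% of all genes were higher and 3.55% lower. Of the heart list, 4 were higher and 8 lower at E17.5. At E18.5, 2 heart genes were higher and 1 lower, and 0 skeletal muscle genes were higher and 4 lower, beside 2.13% and 1.26% of all genes. At PN0, 11 heart genes were higher and 0 lower, and 3 skeletal muscle genes were higher and 5 lower, beside 4.16% and 2.88% of all genes. With the probe sets of a gene averaged, 7 heart genes in place of 11 were higher at PN0, and at a limit of 2-fold 4 were.

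The start sites of these genes were also set beside each other. RefSeq promoter windows (build GRCm38.p6, 250 bases before to 50 after a start) were found for 34 of the 38 genes, 40 windows in all. A gene with several windows was counted once, as holding a site if any of its windows did. The share over all windows counts each window, so the shares of the genes can be somewhat raised beside it. The sites searched, on both strands, were the CArG box bound by serum response factor, the MEF2 site, the M-CAT element CATTCC bound by TEAD factors, the muscle E-box CAGCTG, the GATA site AGATAA and the letters TATAAA, which can lie within a MEF2 site. Of 19 heart genes with a window, 47.4% held CATTCC, and of 15 skeletal muscle genes 26.7% did, beside 14.7% of all 32851 windows. The E-box CAGCTG was in 31.6% of the heart genes and 53.3% of the skeletal muscle genes, beside 16.3% of all windows. A CArG box was in Myl7, Actc1 and Myl3 of the heart list and in Acta1 and Myh4 of the skeletal muscle list, beside 1.63% of all windows. TATAAA was in 31.6% of the heart genes and 53.3% of the skeletal muscle genes, beside 13.6% of all windows. The MEF2 site was in 1 heart gene, Ttn, and 0 skeletal muscle genes, beside 0.557% of all windows. AGATAA was in 5 heart genes and 0 skeletal muscle genes, beside 11.2% of all windows. These are matches of letters in a window and not measured binding.

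The 150 bases before the start are shown for 4 genes that the values below turn on, chosen after the matches were seen: the atrial light chain Myl7 and the cardiac actin Actc1, the load-responsive factor Ankrd1, and the skeletal actin Acta1. Capitals mark the matches, which are the M-CAT element and then the CArG box in Myl7, the CArG box in Actc1, the M-CAT element and the GATA site in Ankrd1, both read on the other strand, and the CArG box, the M-CAT element and the letters TATAAA in Acta1. All 4 lie on the minus strand and are written 5′ to 3′ along the gene.
Myl7, chr11:5898783-5898932: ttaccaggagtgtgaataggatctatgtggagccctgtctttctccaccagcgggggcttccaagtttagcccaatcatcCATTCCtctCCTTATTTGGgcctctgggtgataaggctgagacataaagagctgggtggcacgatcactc
Actc1, chr2:114052876-114053025: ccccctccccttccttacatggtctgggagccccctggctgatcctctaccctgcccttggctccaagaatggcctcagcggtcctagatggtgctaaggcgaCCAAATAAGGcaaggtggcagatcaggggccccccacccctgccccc
Ankrd1, chr19:36119845-36119994: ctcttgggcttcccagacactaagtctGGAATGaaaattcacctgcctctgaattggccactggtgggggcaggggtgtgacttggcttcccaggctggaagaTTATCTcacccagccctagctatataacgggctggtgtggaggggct
Acta1, chr8:123894776-123894925: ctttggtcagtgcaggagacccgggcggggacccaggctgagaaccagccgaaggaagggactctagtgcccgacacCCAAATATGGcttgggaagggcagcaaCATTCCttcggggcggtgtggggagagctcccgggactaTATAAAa

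Among the heart genes, 6 reached a log2 value of 5 on all 6 lung arrays (Myh7, Myl4, Myl7, Tnnt2, Tnnc1 and Actc1), 8 on some, and Myl3, Nppb, Pln and Mb on none. The light chains of atrial muscle were bright throughout. Myl7, the atrial regulatory light chain, stood at 7.69, 9.57 and 9.24 over the 3 stages in order with the Abcb11-/- mother, and at 9.21, 9.45 and 8.39 with the WT mother. Myl4, the essential light chain of atrial and of embryonic skeletal muscle, stood at 6.76, 8.11 and 7.93 with the Abcb11-/- mother, and at 7.57, 8.02 and 7.05 with the WT mother. Both genes were lowest of the 6 arrays at E17.5 with the Abcb11-/- mother, and the mothers' values lay within 0.12 of each other at E18.5. At PN0 the order was turned, with Myl7 1.80-fold and Myl4 1.84-fold higher with the Abcb11-/- mother, against 2.86-fold and 1.76-fold lower at E17.5. A further Myl4 probe set, dim on all 6 arrays, had differences of -0.16, 0.15 and 0.14.

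The troponins of the heart followed a similar course. Tnni3, the inhibitory troponin that only heart makes, read 4.54, 6.65 and 6.49 with the Abcb11-/- mother and 6.03, 6.69 and 5.25 with the WT mother. Its differences were -1.49, -0.03 and 1.24 in stage order. Tnnt2, cardiac troponin T, which embryonic skeletal muscle makes too, was at 6.73, 7.96 and 7.83 with the Abcb11-/- mother and at 7.57, 7.94 and 7.28 with the WT mother. A further Tnnt2 probe set had differences of -0.58, 0.25 and 0.68. Tnnc1, the calcium-binding troponin of heart and slow muscle, showed the narrowest course of the 3, with 6.71, 7.54 and 7.34 with the Abcb11-/- mother and 6.99, 7.57 and 6.74 with the WT mother.

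**Figure D2:**
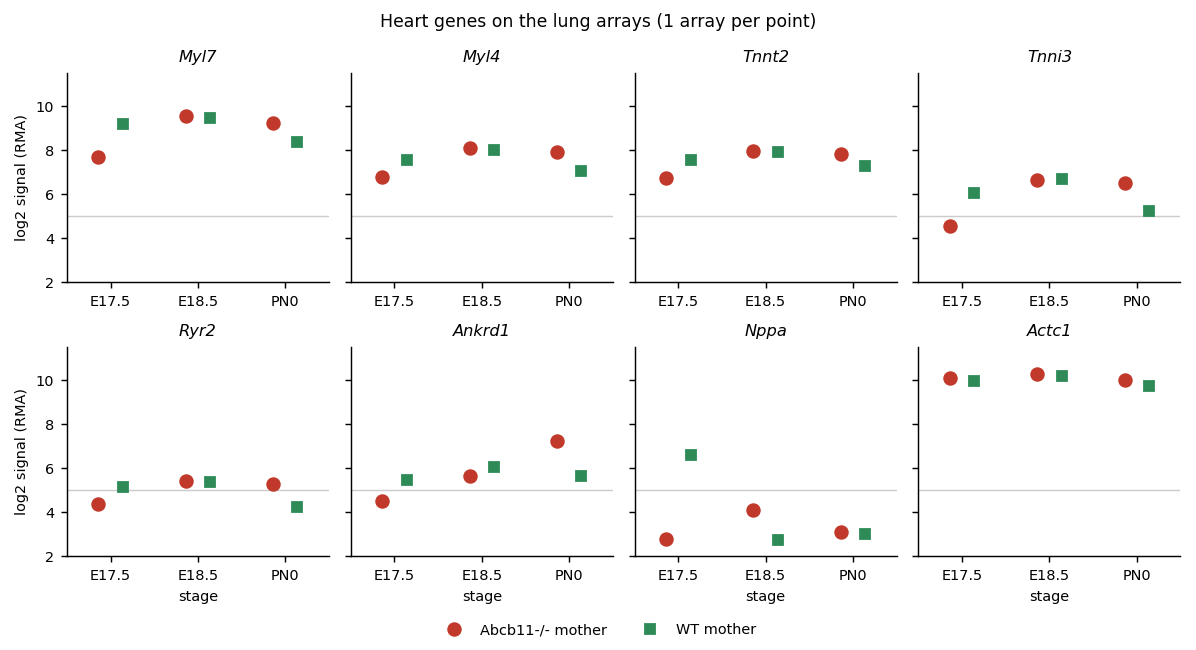
Log2 signal (vertical axis) of 8 heart genes on the 6 lung arrays, with stage on the horizontal axis, a circle for the single array of the Abcb11-/- mother, a square for that of the WT mother, and a grey line at 5. Myl7, Myl4, Tnnt2, Tnni3 and Ryr2 are lower at E17.5, level at E18.5 and higher at PN0 with the Abcb11-/- mother, and Actc1 stays between 9.74 and 10.27 on every array.

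Actc1, cardiac alpha-actin, which embryonic skeletal muscle also makes, varied least among the bright heart genes. It read 10.10, 10.27 and 10.02 with the Abcb11-/- mother and 9.96, 10.21 and 9.74 with the WT mother, a range of 0.53 over the 6 arrays. Ryr2, the calcium release channel of heart muscle, moved with Tnni3 on a dimmer scale, at 4.37, 5.40 and 5.29 with the Abcb11-/- mother and 5.16, 5.38 and 4.25 with the WT mother. The other Ryr2 probe set was dim on all arrays and did not follow this course, with differences of 0.06, 0.16 and -0.12. Pln, the regulated brake on the calcium pump, was dim on all arrays, at 2.95, 4.44 and 4.03 with the Abcb11-/- mother and 3.41, 3.41 and 3.29 with the WT mother. Its difference at E18.5 was 1.02, where its other probe sets gave -0.10 and -0.08.

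Myh7, the beta heavy chain of fetal ventricle and slow skeletal muscle, differed at birth. It read 7.70, 8.14 and 8.00 with the Abcb11-/- mother and 7.59, 8.19 and 6.99 with the WT mother, so that its lowest array was PN0 with the WT mother, 2.01-fold under the Abcb11-/- mother. Its other probe set gave 0.90 at PN0, and it also gave 0.90 at E17.5, where the brighter one gave 0.11. Myosin heavy chain genes resemble each other closely, so how far their probe sets tell them apart is uncertain. The ventricular light chains were dim or nearly so. Myl3 stayed under 5 on all arrays, and Myl2 read 5.56, 3.73 and 3.98 with the Abcb11-/- mother and 3.84, 3.53 and 3.81 with the WT mother, reaching 5 only at E17.5 with the Abcb11-/- mother. Slow skeletal muscle makes both of these light chains as well.

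Ankrd1, a nuclear and sarcomeric protein that heart muscle makes more of under load, gave the largest PN0 difference of the heart list. It stood at 4.50, 5.65 and 7.23 with the Abcb11-/- mother and at 5.48, 6.05 and 5.63 with the WT mother, which is 3.02-fold higher at PN0. Its other probe set read 7.31 with the Abcb11-/- mother and 4.79 with the WT mother at PN0, a difference of 2.52. Ankrd1 was the only heart gene at least 1.5-fold higher at PN0 than at E18.5 with the Abcb11-/- mother.

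The natriuretic peptides are hormones of the stretched atrium and, in the fetus, of the ventricle as well. Nppa was bright on a single array, E17.5 with the WT mother. It read 2.79, 4.10 and 3.11 with the Abcb11-/- mother and 6.58, 2.73 and 2.98 with the WT mother, a log2 difference of -3.79 at E17.5 with a dim value on the Abcb11-/- side. At E18.5 its difference was 1.36 with both of its values dim. Nppb was dim on all 6 arrays, at 3.07, 3.00 and 3.25 with the Abcb11-/- mother and 3.86, 2.99 and 2.86 with the WT mother.

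The 4 heart list genes that were at least 1.5-fold higher at E17.5 with the Abcb11-/- mother, Ttn, Actn2, Casq2 and Myl2, are all made by skeletal muscle too. Ttn, the giant spring of the sarcomere, read 7.92, 5.34 and 5.22 with the Abcb11-/- mother and 4.60, 6.09 and 4.62 with the WT mother. Its other 2 probe sets gave 2.42 and 1.61 at E17.5, -0.15 and -0.30 at E18.5, and -0.03 and 0.31 at PN0. At the later 2 stages neither was 1.5-fold apart, unlike the probe set used. Actn2, the alpha-actinin of the Z-disc in heart and skeletal muscle, read 6.97, 5.38 and 5.04 with the Abcb11-/- mother and 4.76, 5.45 and 4.23 with the WT mother. Casq2, a calcium buffer of the sarcoplasmic reticulum in heart and slow muscle, read 5.92, 4.86 and 4.60 with the Abcb11-/- mother and 4.15, 4.68 and 4.50 with the WT mother. Of the 13 measured heart genes that skeletal muscle also makes, 4 were higher and 3 lower at E17.5 (median 0.14) and 8 were higher and 0 lower at PN0 (median 0.60). Mb, the oxygen store myoglobin, was dim throughout, between 3.41 and 3.77.

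Of the skeletal muscle list, Tnnt1 alone reached 5 on all 6 lung arrays, 12 genes reached it on some, and Myh1, Myh2, Myh4, Actn3 and Ryr1 on none. For 14 of the 18 genes the brightest of the 6 arrays was E17.5 with the Abcb11-/- mother. For 5 of the 18 heart genes it was the brightest array as well, and for 7 it was the dimmest of the 6. The shares of all genes with that array brightest or dimmest were not counted, so these counts have no background.

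Acta1, skeletal alpha-actin, had a log2 difference of 5.87 at E17.5, against a dim value with the WT mother. It read 10.60, 5.79 and 5.22 with the Abcb11-/- mother and 4.73, 6.44 and 5.84 with the WT mother. At E18.5 and PN0 it was lower with the Abcb11-/- mother, by 1.5-fold or more at both. Fetal heart also makes this actin.

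The list holds myosin heavy chains of developing and of adult muscle. Myh3, the embryonic form, read 7.42, 3.48 and 2.98 with the Abcb11-/- mother and 3.20, 4.58 and 3.91 with the WT mother. Myh8, the perinatal form, read 8.50, 3.18 and 3.04 with the Abcb11-/- mother and 2.68, 3.06 and 3.22 with the WT mother. Their log2 differences at E17.5 were 4.22 and 5.83, and Myh8 was dim on each of the other 5 arrays. The adult fast forms Myh1, Myh2 and Myh4 stayed between 2.64 and 3.37 on every lung array, and their differences at E17.5 were -0.01, 0.11 and 0.19. Of the other 3 Myh1 probe sets, 2 were higher at E17.5, at 3.89 and 3.54 with the Abcb11-/- mother and 3.04 and 2.77 with the WT mother, all dim, and with its probe sets averaged Myh1 differed by 0.42. All 5 genes lie on chromosome 11.

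**Figure D3:**
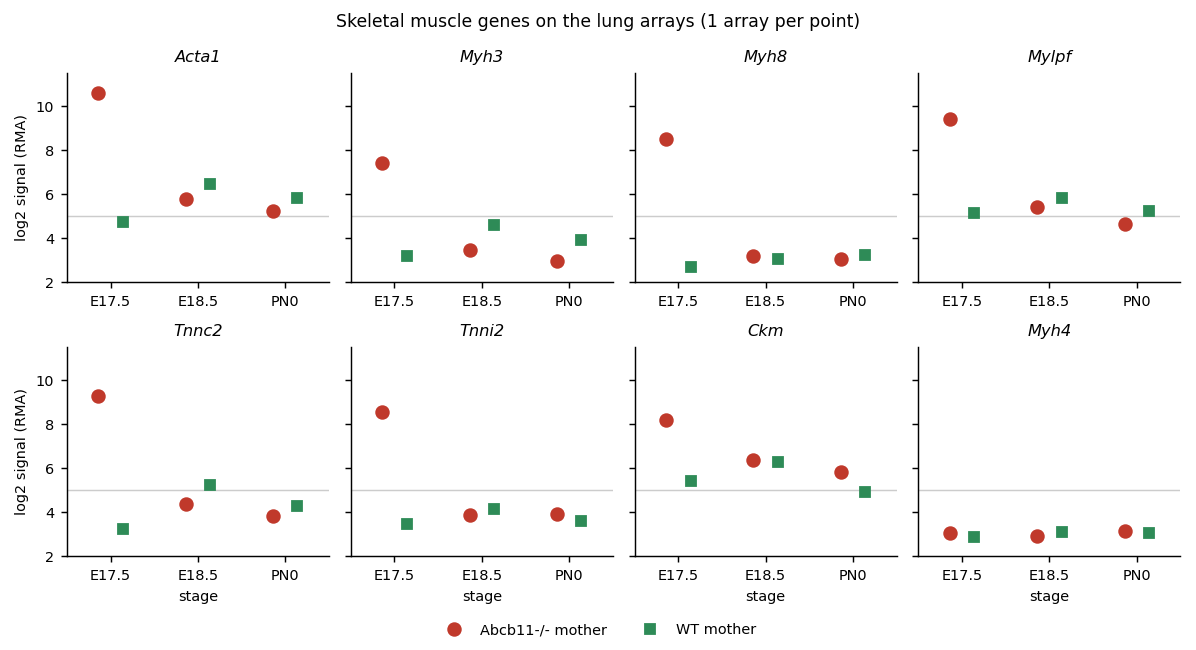
Log2 signal (vertical axis) of 8 skeletal muscle genes on the 6 lung arrays, with stage on the horizontal axis, circles for the Abcb11-/- mother, squares for the WT mother and a grey line at 5. All but Myh4 have their highest point at E17.5 with the Abcb11-/- mother, and Myh4, an adult fast myosin, stays between 2.87 and 3.16.

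The light chains of fast muscle went with Myh3 and Myh8. Mylpf, the fast regulatory light chain, read 9.41, 5.40 and 4.63 with the Abcb11-/- mother and 5.14, 5.81 and 5.22 with the WT mother. Myl1, the fast essential light chain, read 9.28, 5.85 and 4.53 with the Abcb11-/- mother and 4.54, 5.48 and 5.14 with the WT mother. At PN0 both were a little more than 1.5-fold lower with the Abcb11-/- mother.

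The fast troponins were also high on that array alone. Tnnc2, the calcium-binding subunit, read 9.30, 4.37 and 3.83 with the Abcb11-/- mother and 3.24, 5.23 and 4.28 with the WT mother, a log2 difference of 6.06 at E17.5 against a dim value with the WT mother. Tnni2, the inhibitory subunit, read 8.53, 3.87 and 3.89 with the Abcb11-/- mother and 3.46, 4.14 and 3.58 with the WT mother, and of its other 2 probe sets 1 gave 3.11 and 1 gave -0.06 at E17.5. Tnnt3, the subunit that binds tropomyosin, read 7.32, 3.79 and 3.08 with the Abcb11-/- mother and 3.27, 3.34 and 3.01 with the WT mother.

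Of the slow troponins, Tnni1 did not share this height and Tnnt1 did so in part. Tnni1, which slow muscle and the fetal heart both make, read 5.61, 6.08 and 5.95 with the Abcb11-/- mother and 5.49, 5.64 and 4.59 with the WT mother, so that its difference was 0.12 at E17.5 and 1.36 at PN0. Tnnt1, slow troponin T, read 6.88, 5.85 and 6.23 with the Abcb11-/- mother and 5.72, 6.46 and 5.56 with the WT mother, 2.23-fold higher at E17.5 with the Abcb11-/- mother. These were 2 of the 3 skeletal muscle genes that were higher at PN0. The other was Ckm, the muscle creatine kinase, which heart makes as well, at 8.19, 6.37 and 5.83 with the Abcb11-/- mother and 5.40, 6.29 and 4.89 with the WT mother. A further Ckm probe set was dim on all arrays. It read 3.13, 2.91 and 3.06 with the Abcb11-/- mother and 3.04, 3.40 and 3.07 with the WT mother.

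The remaining members were dimmer. Ckmt2, the creatine kinase of muscle mitochondria, and Casq1, the calcium buffer of fast muscle, had log2 differences of 2.52 and 2.01 at E17.5 and passed 5 on that array alone, at 5.46 and 5.37. Ryr1, the calcium release channel of skeletal muscle, read 3.90 with the Abcb11-/- mother and 3.06 with the WT mother at E17.5, both dim. Actn3, the alpha-actinin of fast fibres, lay between 2.90 and 3.83.

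Further genes of each tissue were looked up by the same rule. Of 32 further skeletal muscle genes 29 were measured, and at E17.5 11 were higher and 1 lower with the Abcb11-/- mother, with a median of 0.36. Those with an array at 6 or more were Eno3, muscle enolase, at 7.62 with the Abcb11-/- mother and 6.02 with the WT mother, and Pgam2, muscle phosphoglycerate mutase, at 7.35 with the Abcb11-/- mother and 6.09 with the WT mother. Myot, a Z-disc protein, and Atp2a1, the calcium pump of fast muscle, named after their values were seen, read 5.53 and 5.49 with the Abcb11-/- mother and 2.90 and 3.21 with the WT mother. At E18.5 none of the 29 was 1.5-fold apart. At PN0, 3 were higher and 1 lower. The higher ones were Pgam2 (6.84 with the Abcb11-/- mother and 5.21 with the WT mother), Eno3 (5.80 with the Abcb11-/- mother and 4.68 with the WT mother) and Pygm, muscle glycogen phosphorylase. Pygm read 4.92 with the Abcb11-/- mother and 3.45 with the WT mother, both dim. Pygm, and Eno3 at PN0, did not reach 6 and were named after their values were seen.

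Of 28 further heart genes 22 were measured, and few were bright. Their median difference was -0.10 at E17.5 (2 higher, 2 lower), 0.07 at E18.5 (4 higher, 0 lower) and 0.20 at PN0 (5 higher, 2 lower). At PN0, 16 of the 22 were above 0. Csrp3, a mechanosensing LIM protein of the Z-disc, read 5.84, 6.60 and 6.28 with the Abcb11-/- mother and 5.61, 5.87 and 5.89 with the WT mother. Its probe set was also bright on every liver array, at 8.79 to 9.62, so it cannot be taken to read striated muscle alone. Jph2, which ties the surface membrane to the calcium store, and Cacna1c, the L-type calcium channel that smooth muscle also makes, differed by 0.20 and -0.15 at PN0. Mybpc3, the myosin-binding protein of heart, and Tbx20, a transcription factor of heart muscle, were named after their values were seen. They read 4.95 and 5.12 with the Abcb11-/- mother at PN0 and 3.64 and 4.05 with the WT mother.

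**Figure D4:**
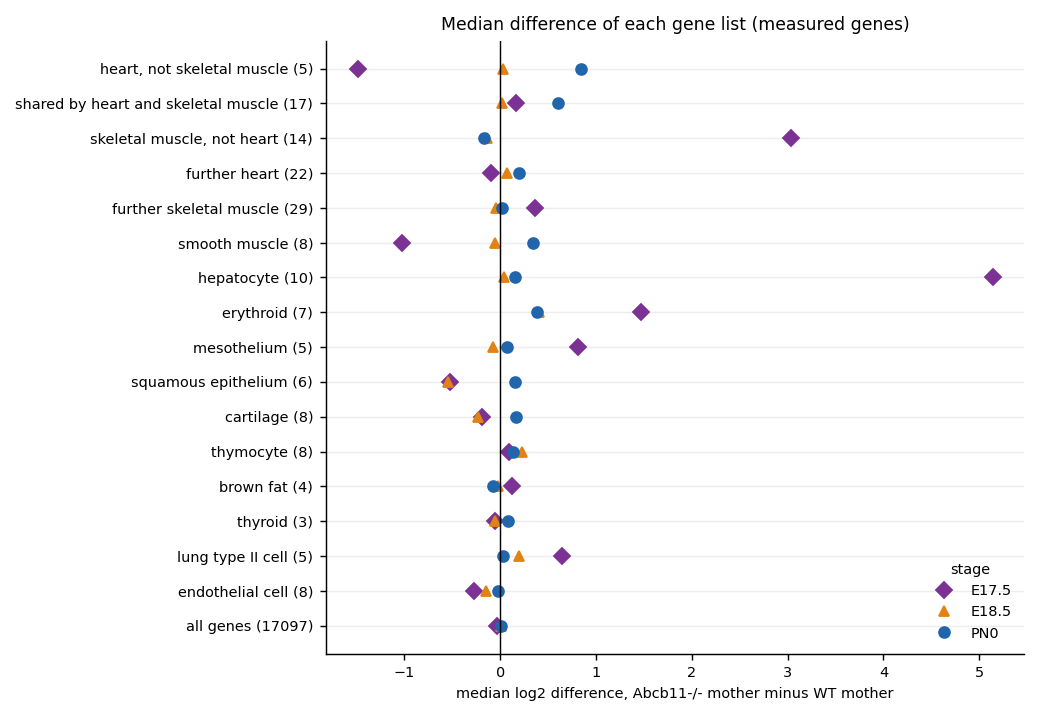
Median log2 difference (horizontal axis, Abcb11-/- mother minus WT mother) of each gene list at each stage, with the number of measured genes in brackets and all 17097 genes in the last row. Genes of skeletal muscle and hepatocytes lie far right at E17.5 (3.03 and 5.14), genes of heart and not skeletal muscle lie at -1.49 at E17.5 and 0.84 at PN0, and the skeletal muscle lists lie between -0.17 and 0.02 at E18.5 and PN0.

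At PN0, where the heart list was higher with the Abcb11-/- mother, other lists were nearer to 0. Smooth muscle genes had a median difference of 0.34 (1 of 8 higher, 1 lower), endothelial genes -0.02 (0 of 8 higher, 1 lower), type II cell genes 0.03 (0 of 5 apart) and mesothelial genes 0.07 (1 of 5 higher). Erythroid genes had 0.38 (1 of 7 higher), cartilage genes 0.16 (2 of 8 higher) and squamous genes 0.15 (2 of 6 higher), with 0 lower in each. Acta2, smooth muscle actin, read 10.86 with the Abcb11-/- mother and 10.61 with the WT mother. Cnn1, a calponin of smooth muscle, was lower, at 6.73 with the Abcb11-/- mother and 7.45 with the WT mother. Hepatocyte genes had a median of 0.15 (3 of 10 higher, 1 lower), with Alb, albumin, at 6.66 with the Abcb11-/- mother and 5.38 with the WT mother. The part of these in the heart values at PN0 was not tested.

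At E17.5 the genes of other tissues and of further cell types, some of them the lung's own, did not all go the same way. Cnn1 was at 4.19 with the Abcb11-/- mother and 6.24 with the WT mother, and Acta2 at 10.32 with the Abcb11-/- mother and 11.16 with the WT mother. Krt4, a keratin of the oesophageal lining, read 3.22 with the Abcb11-/- mother and 6.29 with the WT mother, and 3 of 6 squamous genes were lower and 0 higher. Col9a1, a cartilage collagen, was at 5.23 with the Abcb11-/- mother and 6.63 with the WT mother. Fgb, a fibrinogen chain of the hepatocyte, read 9.71 with the Abcb11-/- mother and 3.39 with the WT mother. Msln, the surface protein mesothelin, read 8.24 with the Abcb11-/- mother and 7.43 with the WT mother. Genes of brown fat and thyroid were dim on all 6 lung arrays.

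Within each mother, the largest step of the skeletal muscle list was between E17.5 and E18.5 with the Abcb11-/- mother. There 14 of 18 genes were at least 1.5-fold lower at E18.5 and 0 higher, with a median change of -2.01, beside 3.61% and 4.28% of all genes. With the WT mother 0 were lower and 9 higher, with a median of 0.53, beside 6.76% and 5.77% of all genes. Over this step the change of Acta1 was -4.81 with the Abcb11-/- mother and 1.72 with the WT mother, and that of Tnnc2 was -4.92 with the Abcb11-/- mother and 1.99 with the WT mother. Of the 18 heart genes, 9 were higher and 4 lower at E18.5 than at E17.5 with the Abcb11-/- mother, and 5 higher and 2 lower with the WT mother.

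From E18.5 to PN0 the 2 mothers differed in the heart list. With the Abcb11-/- mother 1 heart gene was at least 1.5-fold lower at PN0, Nppa, and 1 higher, Ankrd1, with a median change of -0.15, beside 3.64% and 2.72% of all genes. With the WT mother 9 of 18 were lower (Myh7, Myl4, Myl7, Tnnt2, Tnni3, Tnnc1, Ryr2, Actn2 and Ttn) and 0 higher, with a median of -0.61, beside 6.46% and 5.03% of all genes. The change of Tnni3 was -0.16 with the Abcb11-/- mother and -1.44 with the WT mother, and that of Ryr2 was -0.12 with the Abcb11-/- mother and -1.13 with the WT mother. Myl7 gave -0.33 with the Abcb11-/- mother and -1.05 with the WT mother. In the heart list 14 of 18 genes had the lower change with the WT mother and in the skeletal muscle list 10 of 18, beside 49.4% of all genes. The skeletal muscle list also fell more with the WT mother, where 7 of 18 were lower (median -0.33). With the Abcb11-/- mother 3 of 18 were lower (median -0.18), and 0 were higher with either mother. These steps use the same E18.5 and PN0 arrays as the differences between mothers at those stages, so they are another view of the same values.

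**Figure D5:**
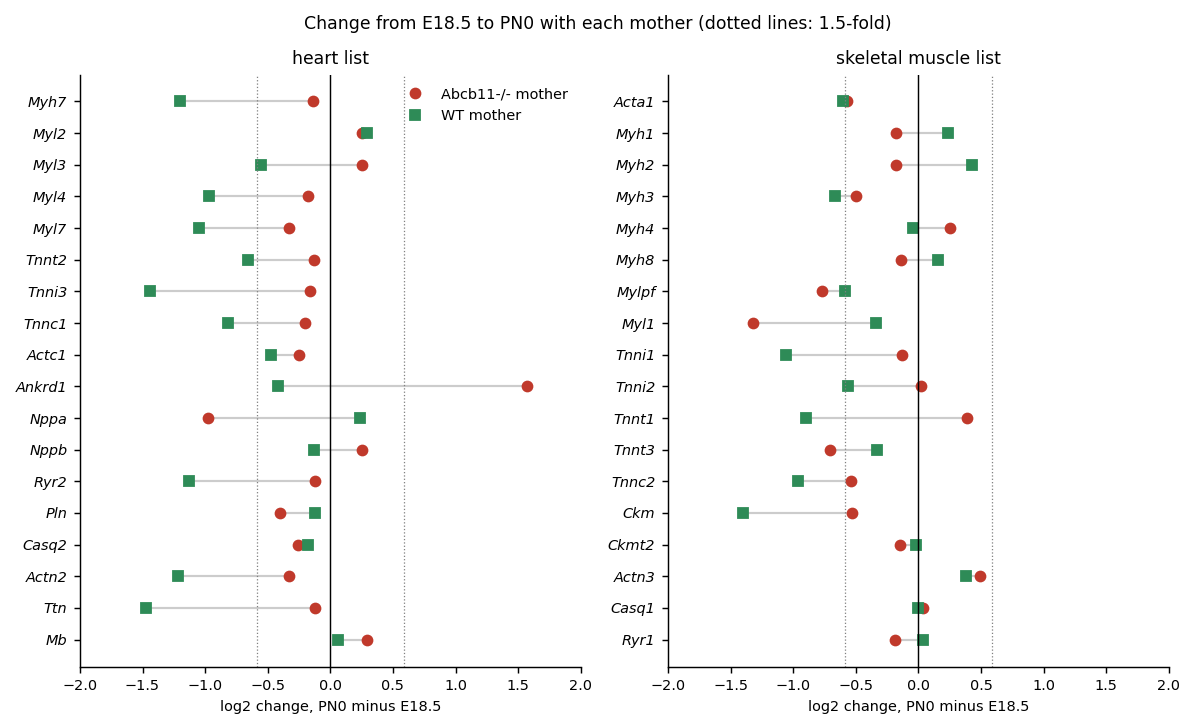
Log2 change from E18.5 to PN0 (horizontal axis, PN0 minus E18.5) of each heart gene (left) and skeletal muscle gene (right), with circles for the Abcb11-/- mother, squares for the WT mother and dotted lines at 1.5-fold. In the heart list 9 squares and 1 circle lie beyond the left line, and Ankrd1 lies at 1.57 with the Abcb11-/- mother and -0.42 with the WT mother.

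With the 3 stages taken as replicates of the mother in limma, no member passed an adjusted p of 0.05, and 0.0% of all genes did. At an unadjusted p under 0.05 there were 867 genes, among them 2 members, Tnni1 with a difference of 0.64 ± 0.24 (SE, adjusted p = 0.93) and Ckm with 1.27 ± 0.48 (adjusted p = 0.93). The average spans stages at which the heart list median lay on opposite sides of 0. Of the heart genes Myl2, Actc1 and Casq2 were higher with the Abcb11-/- mother at all 3 stages and of the skeletal muscle genes Tnni1, Tnnt3 and Ckm, beside 13.2% of all genes. For no member did the 3 arrays of the Abcb11-/- mother all lie above or all lie below those of the WT mother, beside 3.39% and 3.62% of all genes.

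The stage contrasts, with the mother as a term in the same limma model, called no member either. Leaving out an E17.5 array changed some calls against E17.5, and that stage then rests on the other mother alone. Over all genes 0.0585% passed for E18.5 against E17.5, 0.0% for PN0 against E18.5 and 5.9% for PN0 against E17.5. Members at an unadjusted p under 0.05 numbered 3, 2 and 2 in these contrasts, beside 2191, 2098 and 4211 of all genes. Tnnc1 was 0.71 ± 0.23 higher at E18.5 than at E17.5 (SE, adjusted p = 0.30) and Actc1 was at -0.36 ± 0.14 at PN0 relative to E18.5 (adjusted p = 0.38). The model had 2 residual degrees of freedom.

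Liver holds no striated muscle, and nearly all probe sets of the members were dim there. Of the 36 members 35 stayed under 5 on all 6 liver arrays, between 2.26 and 4.38, and Tnnt1 lay between 4.22 and 5.29. No member passed in the limma fit of Abcb11-/- against WT liver, where 7.17% of all genes did. Tnnt1 read 4.22, 4.23 and 4.56 in Abcb11-/- livers and 5.29, 4.50 and 4.97 in WT livers, a difference of -0.58 ± 0.20 (SE, n = 3 each, limma adjusted p = 0.14). Actc1 read 3.39, 3.30 and 3.53 in Abcb11-/- livers and 2.99, 2.95 and 3.11 in WT livers, with a difference of 0.39 ± 0.10 (limma adjusted p = 0.056). All of these Actc1 values were dim.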

How the data were processed

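RNA was isolated from lungs of Abcb11+/- pups and from adult livers, labelled by 3' IVT chemistry and hybridized to 12 Affymetrix mouse PM plate arrays. The deposited table holds log2 values, made by the authors from the scanned arrays with the RMA method (robust multiarray averaging); Partek 6.5 is named in the notes on processing given with the samples. RMA fits each probe set over the arrays together and compresses low signals, so differences of dim probe sets can be understated. The deposited tables carry no detection calls, and the number of arrays limits the precision. Lung arrays had medians of 3.63 to 3.68 and liver arrays of 3.15 to 3.18, and no level was set against one of the other tissue.

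The platform table gave 1 gene for 28898 of the 45037 probe sets, several for 551 and none for 15588, and 28689 were matched to current symbols by gene number. The probe set with the highest mean over the 6 lung arrays stood for a gene, which left 17097 genes, of which 7180 had several probe sets. Of the members 14 had several. All 12 value columns were matched to samples by their labels.

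Differences at a stage are single arrays subtracted on the log2 scale and counted at 1.5-fold. Linear models were run with limma 3.58.1 under R 4.3.3 and moderated by eBayes, two-sided, with Benjamini-Hochberg adjustment over all genes and a threshold of 0.05. They were fitted over the 6 lung arrays with stage and mother as terms, and over the 6 liver arrays with genotype alone. The residual SD of a typical lung gene was 0.158. Each arm of the lung fits holds different stages or mothers, so its spread is not that of replicate animals. The fits were tested on simulated data with known differences. The study states no test for the arrays, and its gene set analysis was not used here.

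All 38 members are named. Of 2 longer lists of heart and skeletal muscle genes, up to 4 were named at E17.5 and at PN0 with the largest differences and a brighter array at 6 or more, and of lists of other tissues the brightest gene and the largest difference at each stage by the same minimum could be named. Genes named outside this rule are marked as chosen after their values were seen. The members and lists were chosen with earlier results of these data known. Promoter windows and start coordinates are RefSeq, GRCm38.p6. Alternatives were averaged probe sets, quantile normalization, centring each array, a minimum of 7, a 2-fold limit, another prior, a mean minimum of 6, another model term, leaving out each array or stage, and for the liver its own brightest probe set and the replicate number as a block.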

Additional observations from a re-analysis of the deposited data

Results flagged for a closer look

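For 13 of the 36 members the difference between the mothers was at least 1.5-fold in opposite directions at 2 stages. Between E17.5 and E18.5 this held for 6 members, between E17.5 and PN0 for 9 and between E18.5 and PN0 for 2, where 0.275%, 0.69% and 0.222% of all 17097 genes did the same. The change of the difference was not tested, since each stage and mother had 1 array.

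Of the heart genes, 5 were lower at E17.5 and higher at PN0 with the Abcb11-/- mother. The later difference minus the earlier one was 2.73 for Tnni3 (differences -1.49 and 1.24), 2.57 for Ankrd1 (-0.98 and 1.59), 2.36 for Myl7 (-1.52 and 0.84), 1.83 for Ryr2 (-0.79 and 1.04) and 1.69 for Myl4 (-0.81 and 0.88). For Nppa the value was 5.15 between E17.5 and E18.5 (-3.79 and 1.36). Ttn had a difference of 3.31 at E17.5, -0.75 at E18.5 and 0.59 at PN0, which gave -4.07 for the first pair of stages and 1.35 for the second. The other Ttn probe sets were not 1.5-fold apart at E18.5 or PN0.

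Of the skeletal muscle genes, Acta1 had -6.53 between E17.5 and E18.5 and -6.50 between E17.5 and PN0, and Myh3 had -5.32 and -5.15. Tnnc2 had -6.92 between E17.5 and E18.5. Between E17.5 and PN0 the value was -5.35 for Myl1 and -4.86 for Mylpf, whose PN0 differences of -0.61 and -0.59 are just past 1.5-fold. Tnnt1, slow troponin T, had -1.77 between E17.5 and E18.5 and 1.29 between E18.5 and PN0.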

How the results depend on the processing

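No difference of at least 1.5-fold changed sign. Of 108 single-gene differences, 7 smaller ones (at most 0.31 in size) changed sign with averaged probe sets and 2 (at most 0.03) with quantile normalization, as did the heart median at E18.5 (0.01, against -0.02 with quantile normalization). Of the 314 alternative values of the list counts, list medians and counts of called members, 284 stayed close to the values reported. Many of these are counts of called members that were 0 in both settings and had little room to move, so this share does not show that the differences are stable. Quantile normalization and centring each array left all 108 single-gene differences within 0.158 of the value reported. The values were already RMA output with lung medians of 3.63 to 3.68, so these 2 settings had little room to move them. Averaging the probe sets of a gene moved 25 of the 108 by more. With averaged probe sets the heart list median at E17.5 was -0.20, heart genes higher at PN0 numbered 7, those at E18.5 were 1 higher and 0 lower, the skeletal muscle median at E17.5 was 2.26, and 1 heart gene, Actc1, was called higher in Abcb11-/- liver. Where the brighter array had to reach 7, 1 of 6 heart genes was higher and 3 lower at E17.5, 0 of 6 higher and 0 lower at E18.5, and 5 of 7 higher at PN0 (median 0.84), the skeletal muscle median at E17.5 was 4.74 over 9 genes, and no skeletal muscle gene was left at E18.5 or PN0. At 2-fold, 3 heart genes were lower at E17.5, 0 lower at E18.5 and 4 higher at PN0, while 1 skeletal muscle gene was lower at E18.5, 1 higher at PN0 and 0 lower at PN0.

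Leaving out each lung array in turn, limma called 0 members for the mother and 0 for PN0 against E18.5. For E18.5 against E17.5 it called 0 to 2 heart genes higher, 0 to 1 heart genes lower, 0 to 3 skeletal muscle genes higher and 0 to 10 lower. For PN0 against E17.5 it called 0 to 1 heart genes higher, 0 to 4 heart genes lower, 0 to 2 skeletal muscle genes higher and 0 to 11 lower. The 10 and the 11 lower skeletal muscle genes came without the array with the WT mother at E17.5, which leaves the Abcb11-/- mother alone at that stage, and the 3 and the 2 higher ones without the array with the Abcb11-/- mother at E17.5. The lone array is then assumed to vary like the others. In the liver, 0 to 1 heart genes were called higher, the 1 being Actc1 without Abcb11-/- replicate 2. The replicate numbers of the liver mice do not pair them by the labels, deviations of same-numbered mice correlated at -0.05, -0.04 and -0.14, and the replicate block called 0 members, as without it.

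Each stage and mother had 1 array, and probe sets near background, which hold most skeletal muscle genes at E18.5 and PN0, cannot show small differences.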
